A study of Mus musculus with 37 samples.

Results

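The bacteria described here are the stool members of the genera Helicobacter and Mucispirillum and of the phylum Desulfobacterota, picked by their names in the deposited taxonomy: every sequence variant of either genus and every variant of the phylum. They came to 301 of the 6100 variants in the table and to 718049 reads, 4.45% of all reads. A sequence variant is a distinct 16S rRNA gene amplicon sequence with its own row of counts. The variants are numbered within each genus by their mean share of reads over all libraries.

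16S rRNA amplicons that span V3–V4 were sequenced from the stool of adolescent mice of the strain C57Bl/6, to ask whether alcohol in early pregnancy alters the gut bacteria of the offspring and whether sons and daughters differ. In the prenatal alcohol exposure group (PAE), dams were given a 10% ethanol solution over 10 days at the start of pregnancy and water afterwards. Control dams had water in place of it throughout. There were 11 control and 10 PAE males, and 7 control and 9 PAE females, with 1 library per sample. No source used here gives the dams, litters or cages, so p-values measure the spread between libraries, some of which may share a dam or a cage. Offspring age is stated only as adolescent.

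Helicobacter species are curved, motile bacteria that colonise the mucus and crypts of the rodent lower gut, and many mouse colonies carry them. Mucispirillum is the spiral, motile inhabitant of the rodent intestinal mucus layer, and M. schaedleri is its type species. Gut Desulfobacterota are mainly Desulfovibrio, which uses hydrogen or lactate to reduce sulfate to hydrogen sulfide, and Bilophila, which makes sulfide from the sulfite of taurine and is known to expand when bile flow rises. A 16S amplicon names the bacterium and measures neither sulfide nor position in the mucus, so the habitat and the metabolism in these descriptions are background. A share of reads is relative to all bacteria in the same library: more of 1 genus and less of the others cannot be told apart. The row identifiers of the deposited table are codes, so the variants are named here by genus and rank, with the species name of the taxonomy where it has one.

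Total reads per library ranged from 102672 to 1813237, with a median of 293111. The members held 0.778% to 15.8% of a library, with a median of 5.15%. Library numbers in the labels ran from 1 to 37, with controls at 1 to 10, PAE at 11 to 29 and controls at 30 to 37. The PAE libraries were divided here between 19 and 20, a break that the titles do not mark. This gave 4 runs, none with both exposures: controls 1 to 10, PAE 11 to 19, PAE 20 to 29 and controls 30 to 37. Each run held males and females. The labels do not say what a run is, so exposure and run cannot be told apart from the labels alone. Median totals were 230299 reads in controls 1 to 10, 208798 in PAE 11 to 19, 502266 in PAE 20 to 29 and 652046 in controls 30 to 37. Controls 30 to 37 stood apart from the other 29 libraries in the member variants they carried, as described next, and the main results that rest on them are given also with controls 1 to 10 alone.

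Member reads were concentrated in few variants. Of the 301 variants, 276 had reads in 1 library alone, and 282 had under 50 reads and 1665 reads together. Helicobacter took 65.3% of member reads (468987 reads, 138 variants), Desulfovibrio 17.6% (126407 reads, 70 variants), Mucispirillum 11.01% (79028 reads, 46 variants), Bilophila 3.598% (25834 reads, 8 variants) and Desulfovibrionaceae without a genus name 2.47% (17732 reads, 30 variants). The other 6 lineages were at the limit of detection. Smithella had 27 reads, Citrifermentans 17, unclassified Syntrophales 6, Desulfomicrobium 4, unclassified Desulfovibrionales 4 and Geoalkalibacter 3. Smithella is known as a syntrophic propionate degrader of anaerobic sediments and digesters, and Geoalkalibacter and Citrifermentans as metal reducers. Of the wider phyla, Campilobacterota had only 1 further genus in the table, Sulfurimonas with 2 reads, and Deferribacterota had no genus but Mucispirillum. Behind the leading variants of these lineages the counts were small: Mucispirillum variant 5 had 44 reads, Bilophila variants 2 to 5 had 20, 5, 3 and 3, and variants 2 to 5 of the unnamed Desulfovibrionaceae had 14, 9, 7 and 8.

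The species names of the taxonomy covered part of these reads. Within Helicobacter, 277092 reads were named H. ganmani, 83962 H. apodemus, 31057 H. rodentium and 4487 H. hepaticus, all of them known from mice or other rodents. H. hepaticus is the best studied of these as a cause of hepatitis and colitis in susceptible strains. A further 72165 Helicobacter reads had no species name, 197 were named uncultured Helicobacter, 23 H. marmotae and 4 H. mesocricetorum. In Mucispirillum 38478 reads were named only as Mucispirillum sp., 22917 had no species name, 17606 were named as an uncultured bacterium and 27 as M. schaedleri. In Desulfovibrio 124172 reads were named as an uncultured bacterium, 1630 as D. fairfieldensis, which is known from human clinical samples, 601 had no species name and 4 carried the name termite gut. Nearly all Bilophila reads (25832) were named as an uncultured bacterium, and 2 reads were of the isolate NLAE-zl-H528.

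The libraries carried 3 different sets of member variants, which followed the label numbers. Libraries 1 to 29, which hold controls and PAE of both sexes, shared Helicobacter variants 1 to 3 (except variant 2 in 1 library) and Desulfovibrio variants 1 to 3, and 27 of the 29 had Mucispirillum reads. Controls 30 to 33 carried Helicobacter variants 4 and 5 and Desulfovibrio variants 1 and 4. Controls 34 to 37 carried Mucispirillum variant 4 and Desulfovibrio variant 1 and almost no Helicobacter. The division of controls 30 to 37 at library 34 was made after the values were seen, so it is described library by library and was not tested.

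**Figure D1:**
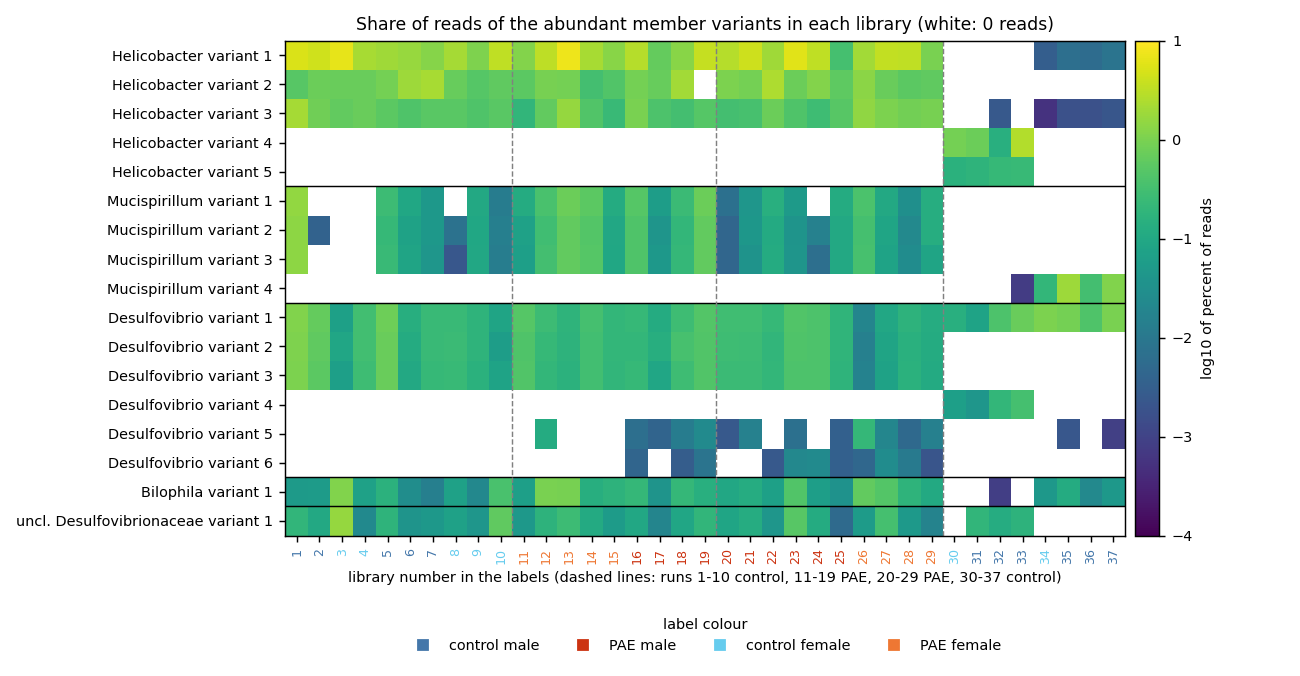
Percent of reads (log10 colour scale, white for 0 reads) of the most abundant member variants in each of the 37 libraries, ordered by library number; dashed lines separate the 4 runs of label numbers and label colours give the group. Helicobacter variants 1 to 3 run through libraries 1 to 29 (variant 2 is missing from library 19), Helicobacter variants 4 and 5 occur in libraries 30 to 33 alone, and Desulfovibrio variant 1 is the only variant with reads in all 37.

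Helicobacter variant 1, named H. ganmani, was the most abundant member. In libraries 1 to 29 it held 0.330% to 7.55% of reads, with a median of 2.26%, and 23.5% to 88.2% of the Helicobacter reads. Helicobacter variant 2, named H. apodemus, held a median of 0.735% and was present in 28 of these 29 libraries, with no read in PAE male 19. Helicobacter variant 3, which has no species name, held a median of 0.533% and was present in all 29. Variants 1 and 2 did not keep a constant proportion: the ratio of variant 2 to variant 1 ran from 0.0978 in control male 1 to 1.77 in control male 7, with a median of 0.334 (28 libraries with at least 50 reads of each). The ratio of variant 3 to variant 1 ran from 0.0725 in PAE male 23 to 1.53 in PAE male 25, with a median of 0.245 (29 libraries). Across those libraries the log2 shares of variants 1 and 2 had a Pearson r of 0.0049, and those of variants 1 and 3 an r of 0.37. These are descriptions over libraries that share a sequencing depth for each pair.

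Variants 4 and 5 took the place of variants 1 to 3 in controls 30 to 33. Variant 4, named H. rodentium, held 0.914% in control female 30, 0.741% in control male 31, 0.145% in control male 32 and 2.68% in control male 33. Variant 5, named H. hepaticus, held 0.159%, 0.177%, 0.222% and 0.231% in the same libraries. Neither variant had a read in any of the other 33 libraries, 19 of which were PAE. Within the 4 libraries the share of variant 5 spanned a narrower range than that of variant 4, and in control male 32 variant 5 was the larger with 58.6% of the Helicobacter reads. Variants 1 and 2 had no read there, and variant 3 had 9 reads in 1 of the 4.

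Controls 34 to 37 had only traces of the genus. Their whole Helicobacter share was 0.00414% in control female 34, 0.00931% in control male 35, 0.00764% in control male 36 and 0.0107% in control male 37, or 48 to 75 reads a library. Variant 1 gave 36 to 57 of these reads and variant 3 gave 9 to 15. Every other control and every PAE library held at least 0.379%.

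**Figure D2:**
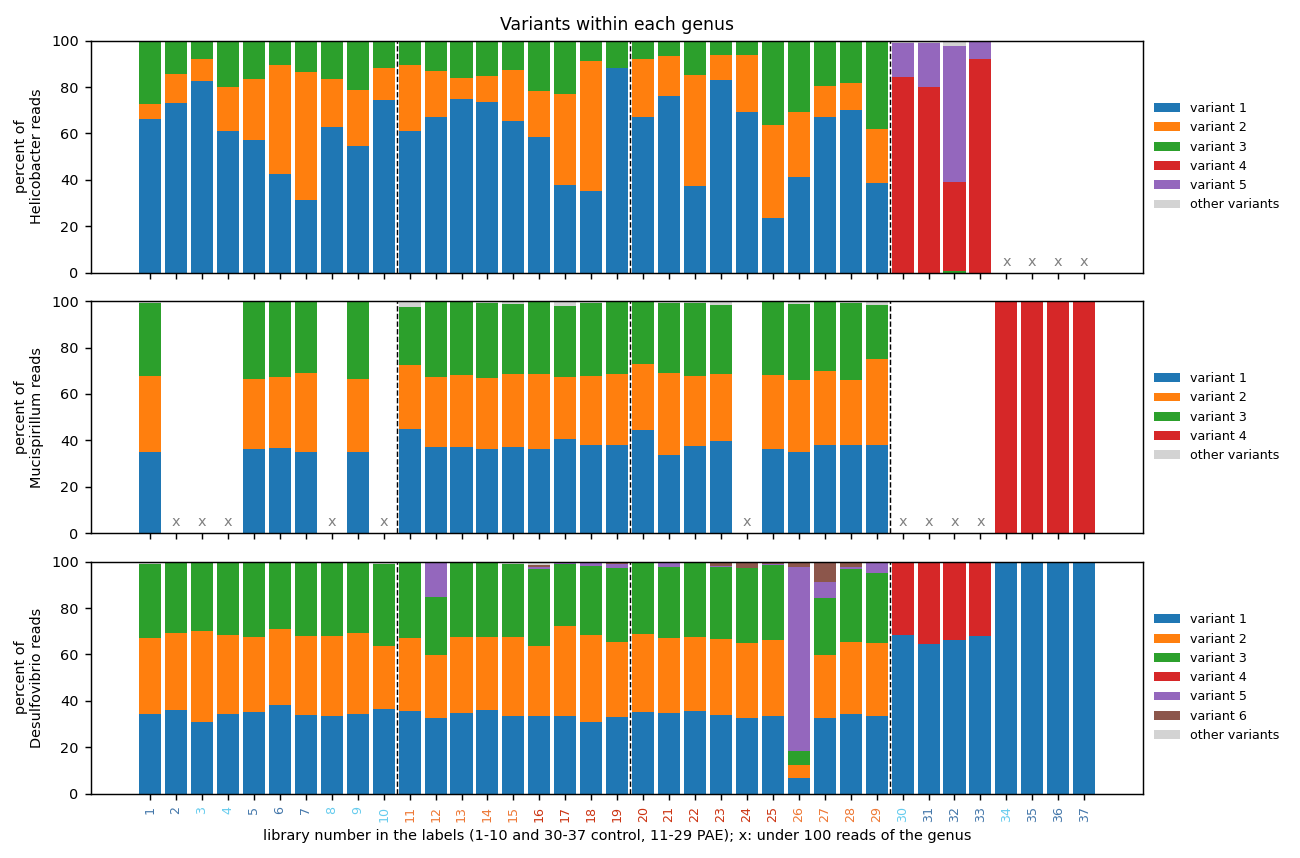
Percent of the reads of Helicobacter (top), Mucispirillum (middle) and Desulfovibrio (bottom) held by each variant in each library, ordered by library number, with an x where the genus had under 100 reads; number colours are blue for control males, light blue for control females, red for PAE males and orange for PAE females. The near-equal parts of Mucispirillum and Desulfovibrio repeat across libraries 1 to 29 while the Helicobacter proportions vary, and PAE female 26 departs from the Desulfovibrio pattern with 79.3% in variant 5.

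Mucispirillum variants 1 to 3 moved as a block. Variants 1 and 2 are named Mucispirillum sp. and variant 3 an uncultured bacterium. In the 22 libraries with at least 50 reads of each, the ratio of variant 2 to variant 1 had a median of 0.833 (0.612 to 1.05) and that of variant 3 to variant 1 a median of 0.861 (0.557 to 0.947). Pearson r of the log2 shares was 0.99 for either pair. Variant 4, without a species name, replaced all 3 in controls 34 to 37, at 0.208% in control female 34, 1.82% in control male 35, 0.323% in control male 36 and 1.11% in control male 37. It had 6 reads in control male 33 and none elsewhere, so no PAE library had a read of it. Variants 1 to 3 had no read in controls 30 to 37.

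Desulfovibrio variants 1 to 3 kept nearly equal shares in libraries 1 to 29. The ratio of variant 2 to variant 1 had a median of 0.951 (0.752 to 1.29) and that of variant 3 to variant 1 a median of 0.921 (0.752 to 0.997), with r of 0.99 and 0.996 on the log2 scale (n = 29). In controls 30 to 33 variants 2 and 3 were absent, and variant 1 stood to variant 4 at a ratio of 1.83 to 2.17, with a median of 2.07. Variant 4 held 0.0672% in control female 30, 0.0427% in control male 31, 0.202% in control male 32 and 0.339% in control male 33, and had no read in the other libraries. In controls 34 to 37 variant 1 made up 99.6% to 99.96% of the genus. Many bacteria carry several copies of the 16S rRNA gene whose sequences can differ, so a single strain can give more than 1 variant; whether the variants of a constant ratio came from 1 strain was not tested.

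The share of a genus held by its leading variant was compared between groups in libraries with at least 100 reads of the genus, in 12 tests adjusted together. For Desulfovibrio variant 1 it was 33.7% ± 1.38 in PAE males (SD, n = 10) and 61.4% ± 28.05 in control males (SD, n = 11), a difference of -27.7 percentage points (two-sided permutation test with 100000 permutations, p = 0.00371, adjusted p = 0.0445). With at least 1000 reads of the genus required, the difference was -27.4 and the adjusted p 0.138. With controls 1 to 10 alone, a choice made after the data were seen, the male difference was -1.79 (35.5% ± 1.61, n = 5, in controls, exact permutation adjusted p = 0.492), and with controls 30 to 37 alone -49.4 (83.04% ± 18.4, n = 6, exact permutation adjusted p = 0.0015). In females the share was 31.1% ± 9.15 in PAE (n = 9) and 48.2% ± 26.2 in controls (n = 7), a difference of -17.1 (exact permutation test, p = 0.0678, adjusted p = 0.234), and -2.80 with controls 1 to 10 alone. The control libraries differed by run. Libraries 1 to 29, which are controls 1 to 10 and all PAE libraries together, ranged from 6.92% to 38.02%. Controls 30 to 33 lay at 64.7% to 68.3%, and controls 34 to 37 were close to 100%. For Helicobacter variant 1 the difference of PAE from control was 23.8 in males (57.6% ± 22.7, n = 10, against 33.8% ± 30.8, n = 8, exact permutation adjusted p = 0.234) and 6.18 in females (exact permutation adjusted p = 0.783). These were 3.58 and -5.00 against controls 1 to 10. For Mucispirillum the leading variant over all reads is variant 4, which no PAE library held, and its share differed by -42.8 in males and -49.8 in females (exact permutation adjusted p = 0.234 and 0.382, with 7 and 2 control libraries that had enough reads). The remaining tests, male against female, gave adjusted p from 0.382 to 1.

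At the level of whole genera, PAE and control were compared with edgeR's quasi-likelihood test on 4 group means, adjusted by Benjamini-Hochberg over all 112 genera tested, with 0.05 as the threshold for a call. Fold changes from this fit are on the log2 scale after TMM scaling, which sets libraries against each other by the bulk of their taxa, and can differ in size and sign from ratios of mean shares. Of 11 member genera, 5 had at least 5 reads in at least 7 libraries and were tested. In males 0 of 5 were called, where 11.6% of all genera were; 1 had an unadjusted p under 0.05, DESeq2 called 0 and limma on centred log-ratios called 2, where it called 30 of all 112. In females 0 of 5 were called, where 2.68% of all genera were; 0 had an unadjusted p under 0.05, DESeq2 called 0 and limma called 1, the only one of its 112. The median log2 fold change over all genera was -0.28 in males and -0.13 in females.

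Helicobacter held 2.68% ± 2.67 of reads in control males and 4.19% ± 1.66 in PAE males (SD, n = 11 and 10). Control males ran from 0.00764% through a median of 2.91% to 7.88%, and PAE males from 1.40% through 4.38% to 7.05%, so the groups overlapped and the highest library was a control. The edgeR log2 fold change was 1.28 (SE 0.80, adjusted p = 0.295). With controls 1 to 10 alone it was -0.0051 (SE 0.44, adjusted p = 0.991), and with controls 30 to 37 alone 2.32 (SE 1.03, adjusted p = 0.134). In females the share was 3.21% ± 2.58 in controls (n = 7; 0.00414%, 3.30% and 7.87% as lowest, median and highest) and 4.34% ± 2.52 in PAE (n = 9; 1.95%, 4.74% and 10.1%). The edgeR log2 fold change was 0.36 (SE 0.92, adjusted p = 0.960), against 0.07 (SE 0.45, adjusted p = 0.922) from controls 1 to 10 only and 2.00 (SE 1.64, adjusted p = 0.670) from controls 30 to 37 only. Within runs, Helicobacter averaged 4.66% ± 1.95 in controls 1 to 10 (n = 10), 3.98% ± 2.55 in PAE 11 to 19 (n = 9), 4.52% ± 1.57 in PAE 20 to 29 (n = 10) and 0.666% ± 1.01 in controls 30 to 37 (n = 8).

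**Figure D3:**
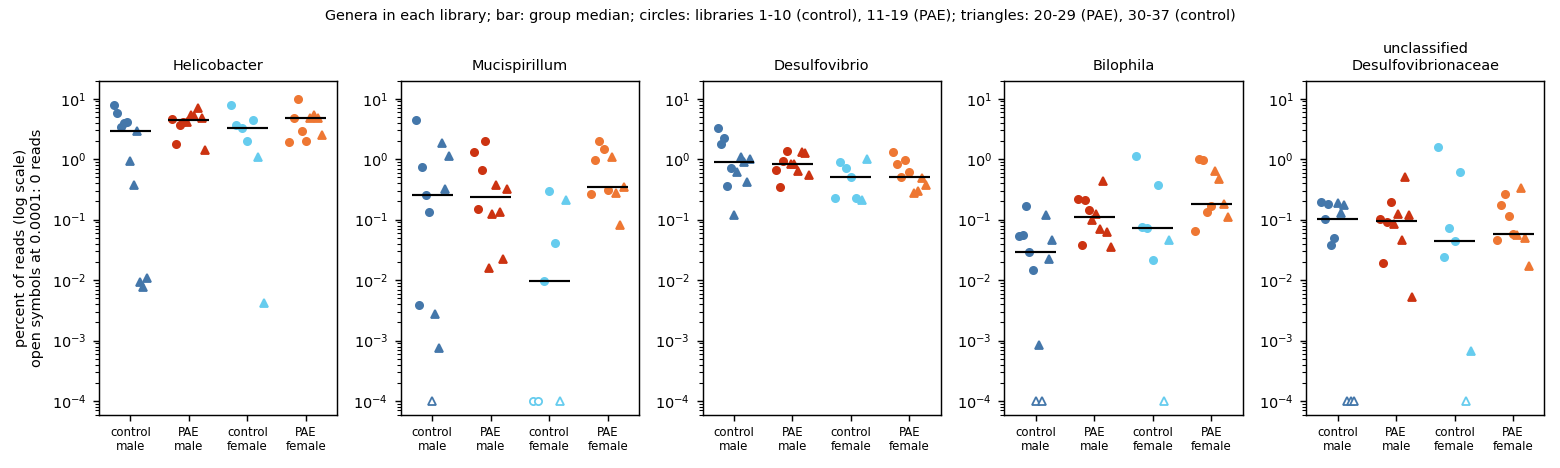
Percent of reads (log scale) of 5 member genera in each library by group, with the group median as a bar; circles are libraries 1 to 19, triangles libraries 20 to 37, and open symbols at the bottom mark 0 reads. Groups overlap in every panel, and the lowest Helicobacter values, 0.00414% to 0.0107%, are controls 34 to 37.

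Mucispirillum varied widely within groups. Control males held 0.800% ± 1.33 (n = 11), from 0% through a median of 0.256% to 4.41% in control male 1, and PAE males 0.516% ± 0.659 (n = 10), from 0.0161% through 0.238% to 2.01%. The edgeR log2 fold change in males was -0.50 (SE 1.17, adjusted p = 0.803) and was 0.08 without control male 1. Control females held 0.0804% ± 0.124 (n = 7), with 0% in 3 libraries, a median of 0.00985% and a highest value of 0.303%. PAE females held 0.761% ± 0.669 (n = 9), from 0.0821% through 0.349% to 2.02%. The mean share in PAE females was 9.46-fold that of control females, and 17.6-fold without control female 9, with an edgeR log2 fold change of 2.81 (SE 1.49, unadjusted p = 0.0669, adjusted p = 0.533), and limma on centred log-ratios called it (log2 fold change 6.54, SE 1.59, adjusted p = 0.0223). With the runs as a random block limma did not (6.71, SE 2.87, adjusted p = 0.984). All 9 PAE females lay above 5 of the 7 control females, and 2 control females, 9 and 34, lay within the PAE range. With controls 1 to 10 alone the edgeR log2 fold change in females was 3.25 (SE 1.55, adjusted p = 0.644), and with controls 30 to 37 alone 1.95 (SE 2.36, adjusted p = 0.811). Between the PAE runs, a division that the titles do not mark, Mucispirillum averaged 1.03% ± 0.729 in libraries 11 to 19 (n = 9). In libraries 20 to 29 it averaged 0.278% ± 0.312 (n = 10).

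Desulfobacterota as a whole had close group means, but the control runs differed. In males it was 1.28% ± 1.001 in controls and 1.15% ± 0.544 in PAE (SD, n = 11 and 10), and in females 1.13% ± 0.877 and 1.16% ± 0.484 (n = 7 and 9). At phylum rank the edgeR log2 fold change was -0.06 in males (SE 0.52, adjusted p = 0.909) and 0.06 in females (SE 0.60, adjusted p = 0.928). Control males averaged 1.85% ± 1.26 in the run 1 to 10 (n = 5) and 0.800% ± 0.366 in the run 30 to 37 (n = 6), on either side of the PAE males. Against the first run only, the male edgeR log2 fold change was -0.75 (SE 0.56, adjusted p = 0.316), and against the second 0.57 (SE 0.58, adjusted p = 0.416), in fits added after the data were seen. In females it was 0.11 and 0.74 (adjusted p = 0.917 and 0.763). Every library had reads of the phylum, from 0.213% in control female 30 to 3.48% in control male 1. Desulfovibrio, its main genus here, held 1.13% ± 0.934 in control males, from 0.121% through 0.903% to 3.23%, and 0.873% ± 0.344 in PAE males, from 0.350% through 0.835% to 1.39%. In females it held 0.544% ± 0.338 in controls, from 0.213% through 0.512% to 1.01%, and 0.628% ± 0.345 in PAE, from 0.273% through 0.512% to 1.32%. The edgeR log2 fold changes were 0.25 in males (SE 0.51, adjusted p = 0.776) and 0.02 in females (SE 0.58, adjusted p = 0.970), and the value in males was -0.38 with library totals and -0.12 with DESeq2, so no direction is given. The 3 highest Desulfovibrio shares, 3.23%, 2.24% and 1.79%, were control males 1, 5 and 2 of the first run.

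Bilophila had the smallest p of the member genera in males. Its share was 0.0462% ± 0.0533 in control males (n = 11; 0%, 0.0287% and 0.167% as lowest, median and highest) and 0.143% ± 0.121 in PAE males (n = 10; 0.0350%, 0.112% and 0.433%). PAE males had 3.09 times the control mean, and the groups overlapped. The edgeR log2 fold change was 2.32 (SE 1.04, unadjusted p = 0.0320, adjusted p = 0.128). Limma on centred log-ratios called it (4.04, SE 1.21, adjusted p = 0.0201) and limma with the runs as a random block did not (3.80, SE 2.22, adjusted p = 0.588). With controls 1 to 10 alone the edgeR log2 fold change was 1.30 (SE 0.96, adjusted p = 0.720). In females Bilophila held 0.245% ± 0.411 in controls (0%, 0.0716% and 1.13%) and 0.413% ± 0.368 in PAE (0.0661%, 0.181% and 0.995%), and edgeR gave a log2 fold change of 0.50 (SE 1.17, adjusted p = 0.960). Bilophila was nearly absent from controls 30 to 33, with 3 reads in 1 of the 4 libraries, and was at 0.0221% to 0.121% in controls 34 to 37. A single variant made up 25790 of its 25834 reads.

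Desulfovibrionaceae without a genus name, named uncultured Desulfovibrionales at species level, held 0.0962% ± 0.0814 in control and 0.130% ± 0.144 in PAE males, and 0.337% ± 0.602 in control and 0.123% ± 0.110 in PAE females. Control females 3 and 10 had 1.61% and 0.604%, above every other library. The edgeR log2 fold change was 0.93 in males (SE 1.18, adjusted p = 0.634) and -1.50 in females (SE 1.35, adjusted p = 0.876). The female value was 1.82 with limma on centred log-ratios, 2.78 with the runs as a random block and 7.74 with controls 30 to 37 alone (adjusted p = 0.901, 0.984 and 0.345), so no direction is given. Its variant 1 had reads in controls 31 to 33 at 0.126% to 0.192%, and no read in control female 30 or in controls 34 to 37.

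Sequence variants were tested in the same way over all 553 variants that passed the filter. Of the 301 member variants 13 passed, with 91.0% of member reads; Helicobacter variants 4 and 5, Mucispirillum variant 4 and Desulfovibrio variant 4 had reads in too few libraries. At least 5 reads of Desulfovibrio variant 5 were found in 13 PAE and 2 control libraries, and of variant 6 in 11 PAE and 0 control libraries. Both passed the filter only through PAE, where they are high, while variants as particular to controls did not pass it, so the calls on these variants describe them and support no direction. In males 1 of 13 was called, Desulfovibrio variant 6, against 12.1% of all variants called in either direction and 4.16% called higher in PAE. In females 2 of 13 were called, Desulfovibrio variants 5 and 6, against 12.3% of all variants in either direction and 3.98% called higher in PAE. The median log2 fold change over all tested variants was -0.71 in males and 0.26 in females, and with library totals in place of TMM it was -0.66 and 0.41.

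Desulfovibrio variant 6, without a species name, was found in PAE libraries alone. It had reads in 11 of 19 PAE libraries, 505 reads in all, and in 0 of 18 control libraries. Among PAE males it held 0.00433% in library 16, 0.00298% in 18, 0.00837% in 19, 0.00246% in 22, 0.0217% in 23, 0.0244% in 24 and 0.00337% in 25, and 0% in 17, 20 and 21. Among PAE females it held 0.00472% in library 26, 0.0266% in 27, 0.0108% in 28 and 0.00209% in 29, and 0% in 11 to 15. All PAE females with reads belonged to the run 20 to 29, and 8 of the 10 libraries of that run had reads against 3 of 9 in the run 11 to 19. The mean share in PAE males was 110.0 times the share of 3 reads in the pooled control male reads, and in females 58.2 times. As a mean over libraries is set against a pooled share, these ratios are not lower bounds on the fold between group means. The female ratio was 26.1 without PAE female 27 and 28.6 without control female 34. The edgeR adjusted p was 0.00482 in males and 0.0276 in females. The fitted log2 fold changes of 7.77 (SE 1.75) and 7.56 (SE 2.24) depend on the prior count. The call was lost in both sexes with controls 1 to 10 alone (adjusted p = 0.159 and 0.187) and with the runs as a random block (adjusted p = 0.582 and 0.992). In females it was also lost without control female 34 (adjusted p = 0.0664), with controls 30 to 37 alone (0.228), with the library total as a covariate (0.0566), with no filter on low counts (0.0931) and with limma on centred log-ratios (0.602). Variant 6 had 0 reads in either run of controls, so these subsets change how many control libraries enter, not their reads of it. The random block was fitted with limma on centred log-ratios, which without the block called variant 6 in males (adjusted p = 0.0102).

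Desulfovibrio variant 5, named D. fairfieldensis, was found in 13 of 19 PAE libraries (1612 reads) and 2 of 18 control libraries (18 reads). PAE females had 0.121% in library 12, 0.216% in 26, 0.0200% in 27, 0.00510% in 28 and 0.0151% in 29, and no read in 11 and 13 to 15, while no control female had a read. EdgeR called the difference in females (adjusted p = 0.0185, fitted log2 fold change 10.33, SE 2.52). The mean share in PAE females was 498 times the share of 3 reads in the pooled control female reads, again not a lower bound. That ratio was 239.6 without PAE female 26 and 245 without control female 34. In PAE males 8 of 10 libraries had reads, from 0.00249% to 0.0247%, and 2 control males had 0.00228% (library 35) and 0.000888% (library 37). The male difference was not called (log2 fold change 4.17, SE 1.60, edgeR adjusted p = 0.0971). It was called by DESeq2 (4.74, adjusted p = 0.0253) and by limma on centred log-ratios (4.80, adjusted p = 0.0133). By edgeR it was called without control male 35 (5.69, adjusted p = 0.0215). With the runs as a random block limma called 0 of 13 member variants in males. In females the call was lost with controls 1 to 10 alone (adjusted p = 0.0866), with controls 30 to 37 alone (0.162), with PAE 11 to 19 alone (0.106), with no filter on low counts (0.059), with limma on centred log-ratios (0.261) and with the runs as a random block (0.992). In PAE female 26 variant 5 made up 79.3% of the Desulfovibrio reads, while variants 1 to 3 together were at their lowest of libraries 1 to 29, with 72, 57 and 62 reads.

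**Figure D4:**
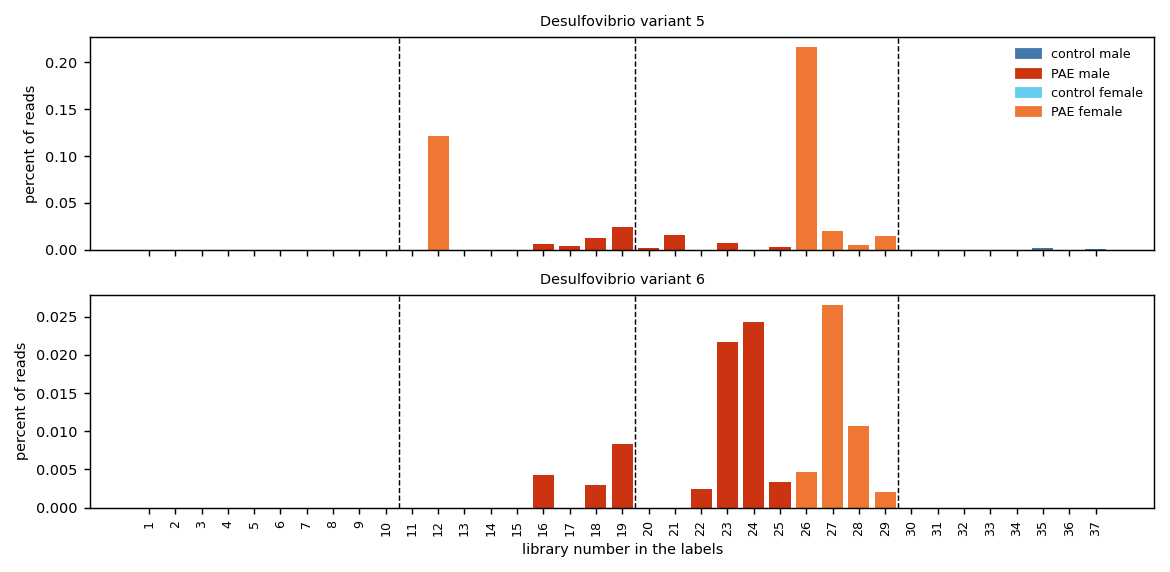
Percent of reads (linear scale) of Desulfovibrio variant 5 (top) and variant 6 (bottom) in each library, ordered by library number, with bars coloured by group and dashed lines between the 4 runs. Bars reach 0.216% for variant 5 in PAE female 26 and 0.0266% for variant 6 in PAE female 27, and the only control bars are the small ones of variant 5 in libraries 35 and 37.

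These shares are low, so taxa known from reagents and skin were set beside them. Of 9 such genera listed, 7 were in the table and 4 were tested. Their summed share in males was 0.00411% to 0.0229% for controls and 0.00502% to 0.0607% for PAE. In females it was 0.00259% to 0.0636% for controls and 0.00295% to 0.0616% for PAE, and its part in the results on variants 5 and 6 was not tested. Sphingomonas was called higher in PAE than in control females (log2 fold change 6.17, SE 1.61, edgeR adjusted p = 0.0203), with a mean share of 0.00238% ± 0.00183 in PAE females and no read in control females. It was also higher in control males than in control females (edgeR adjusted p = 0.0236). The other 3 were not called in either sex.

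Which variants were called depended on which controls were used. With controls 30 to 37 alone, 9 of the 13 variants were called in males and 9 in females, all higher in PAE, among them Helicobacter variants 1 to 3, Mucispirillum variants 1 to 3 and Desulfovibrio variants 2 and 3. Over all variants tested there, 143 were called in males (29%) and 48 in females (9.74%). In that run 7 of the 13 had no read. Helicobacter variants 4 and 5, Mucispirillum variant 4 and Desulfovibrio variant 4 had reads in only 4 to 5 of those controls. They could not pass the filter of 7 libraries. The calls against these controls therefore describe the variants and support no direction. With controls 1 to 10 alone 0 were called in either sex, with 2 unadjusted p under 0.05 in males and 4 in females, and of all variants 1.22% and 1.42% were called. With the runs as a random block limma called 0 in either sex, and without the block it called 11 in males and 3 in females. Over all 553 variants it called 0 in either sex with the block, and 95 and 9 without it, so the loss was not limited to the members. The unadjusted member counts with the block were 9 and 7. With no filter beyond 1 read all 301 member variants entered, and edgeR called 1 higher and 6 lower in PAE males, and 0 higher and 4 lower in PAE females, where 539 and 169 of all 6085 were called. Lower in both sexes were Helicobacter variants 4 and 5, Mucispirillum variant 4 and Desulfovibrio variant 4, all found in controls 30 to 37 alone. Helicobacter variant 7 (123 reads in 4 libraries) and Desulfovibrio variant 7 (25 reads in 1 library) were lower in males.

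Differences in the response of the sexes were tested as an interaction. At genus rank 0 of 5 members passed, with 0 under an unadjusted p of 0.05, where 3.57% of all genera were called; DESeq2 called 0. The smallest p was that of Mucispirillum, whose log2 fold change was 3.31 lower in males than in females (-3.31, SE 1.87, unadjusted p = 0.0844, edgeR adjusted p = 0.542). At variant rank 0 of 13 passed, with 1 under an unadjusted p of 0.05, where 0% of all variants were called; DESeq2 called 0. That 1 was Desulfovibrio variant 5 (-6.16, SE 2.26, edgeR adjusted p = 0.159). This variant passed the filter only through PAE. Its control reads were 18, in 2 control males, with none in control females, so the value supports no difference between the sexes.

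Male and female mice were also compared within each exposure. In controls 0 of 5 genera were called by edgeR, with 1 under an unadjusted p of 0.05, where 4.46% of all genera were. DESeq2 called 1 of the 5, where it called 9.82% of all genera. That genus was Bilophila, at 0.0462% ± 0.0533 in control males and 0.245% ± 0.411 in control females. The female mean was 5.31-fold the male one, and 2.11-fold without control female 3. Its edgeR log2 fold change was -3.05 (SE 1.12, adjusted p = 0.120; DESeq2 -3.43, adjusted p = 0.00497). With the runs as a fixed block it was -1.75 (SE 1.57, edgeR adjusted p = 0.926). Within controls 1 to 10 alone it was -2.64 (SE 1.11, adjusted p = 0.419) and within controls 30 to 37 alone -0.45 (SE 1.87, adjusted p = 1). At variant rank 0 of 13 were called in controls, with 3 under an unadjusted p of 0.05, where 0.904% of all variants were called. DESeq2 called 1, Bilophila variant 1, where it called 5.79% of all variants. In PAE mice 0 of 5 genera and 0 of 13 variants were called, with 0 and 0 under an unadjusted p of 0.05, where 0% of all genera and 0% of all variants were called; DESeq2 called 0 and 0. Bilophila was again lower in the mean of males, 0.143% against 0.413%, and edgeR gave -1.24 (SE 1.06, adjusted p = 0.804).

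How the genera varied with each other was measured on log2 normalised counts, scaled to a common library size. All 37 libraries fall into separate clusters by their variant sets, so no correlation is given over them, and libraries 1 to 29 were used with the mean of each run and sex removed. Of 6 pairs, Helicobacter and Bilophila moved together: Pearson r = 0.74 (permutation p = 6e-05, adjusted p = 0.00036) and Spearman rho = 0.77 (permutation p = 0.0001, adjusted p = 0.0006), n = 29. Without the 2 libraries farthest from the median Helicobacter value r was 0.72. Within the runs r was 0.66 in controls 1 to 10 (n = 10), 0.90 in PAE 11 to 19 (n = 9) and 0.80 in PAE 20 to 29 (n = 10). The pair shares library depth and the composition of each library, and this choice of libraries was made after their variants were seen. The libraries left out went the other way between their sets. Controls 30 to 33 had 0.379% to 2.91% Helicobacter and at most 0.000835% Bilophila. Controls 34 to 37 had 0.00414% to 0.0107% Helicobacter and 0.0221% to 0.121% Bilophila. PAE female 13 had 10.1% Helicobacter and 0.953% Bilophila, control female 3 had 7.87% and 1.13%, and PAE male 25 had 1.40% and 0.0350%. The other 5 pairs had r from -0.15 to 0.22 and permutation adjusted p from 0.828 to 0.998. Their values within runs covered a wider range, of both signs: r of Helicobacter with Mucispirillum was -0.38 in controls 1 to 10, 0.76 in PAE 11 to 19 and -0.28 in PAE 20 to 29, and that of Helicobacter with Desulfovibrio -0.17, -0.30 and 0.80. For Mucispirillum with Desulfovibrio they were -0.027, 0.11 and -0.67. On centred log-ratios the pairs of Desulfovibrio with Helicobacter (r = 0.66, permutation adjusted p = 0.0045) and with Bilophila (r = 0.48, adjusted p = 0.0246) passed too.

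**Figure D5:**
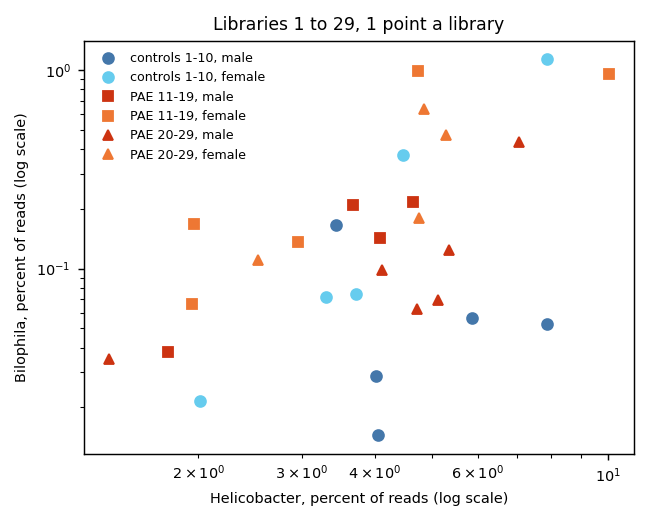
Share of Bilophila against share of Helicobacter (both percent of reads, log scales), 1 point for each of libraries 1 to 29, with run by symbol and group by colour. Libraries with more Helicobacter tended to have more Bilophila within each run, with 2 control males at 5.86% and 7.88% Helicobacter below the trend at 0.0564% and 0.0529% Bilophila.

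Other bacteria of the same habitat or substrate were counted from lists. Of 10 genera known to include mucin users or to live at the mucus or epithelium, 6 were in the table and 5 were tested: Bacteroides, Parabacteroides, Bifidobacterium, Candidatus Arthromitus (segmented filamentous bacteria, which attach to the ileal epithelium) and Muribaculum. In males 1 was called, Bacteroides, higher in PAE (3.06% ± 1.71 in controls, 17.3% ± 13.3 in PAE, log2 fold change 3.32, SE 0.68, edgeR adjusted p = 0.000703), and the median of the 5 was 0.96 beside -0.28 over all genera. In females 0 were called, and the median was -0.37 beside -0.13. The 6 together held 6.12% ± 1.98 in control and 21.6% ± 14.04 in PAE males, and 7.83% ± 4.89 in control and 13.1% ± 12.2 in PAE females. Of 4 genera known to use hydrogen to form acetate or methane, 2 were tested. Blautia was called higher in PAE males (0.272% ± 0.264 against 6.66% ± 6.86, log2 fold change 5.50, SE 1.197, edgeR adjusted p = 0.00105), and Marvinbryantia was not called (-4.44, SE 1.96, adjusted p = 0.128). In females 0 of 2 were called. Over all 112 genera tested, edgeR called 11.6% in males and 2.68% in females. With controls 1 to 10 alone it called 2 of 101 genera in males, and whether Bacteroides or Blautia was among them is not given here. With the runs as a random block limma called 0 of 112 in males, so neither was called there. Desulfovibrio, which also uses hydrogen, was not called in either sex, and the difference between its change and that of Blautia was not tested.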

How the data were processed

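Stool DNA of 37 mice was amplified over V3–V4 and read from both ends on an Illumina NovaSeq (250 cycles each), per the labels' protocols. Bowtie2, cutadapt and the mouse build GRCm39 are named, without their role, per the submitters' processing notes. For the denoiser and classifier, the method is not given in the sources used here. Whole-number read counts per sequence variant, with a taxonomy, were deposited by the authors. Rows that were unassigned, eukaryotic, chloroplast or mitochondrial were left out (15 rows, 1522 reads), which kept 99.99% of reads. Shares are percents of the kept reads.

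The filter was 5 or more reads in 7 or more libraries, and the main test was that of edgeR 4.0.16 (quasi-likelihood, TMM, 4 group means over 37 libraries, R 4.3.3) and Benjamini-Hochberg adjustment over all taxa of the rank. Alternatives used limma 3.58.1 (centred log-ratios, offset 0.5), DESeq2 1.42.0, other scalings, filters and subsets of libraries. The code was tested on simulated data. Folds against a group without reads set the mean share against 3 reads over the pooled reads of that group. They are not lower bounds on the fold of mean shares. Members, lists and tests were chosen with earlier results of these data known. Named are every member genus and species name, the 5 variants of highest mean share per genus and every variant that edgeR called; Helicobacter and Desulfovibrio variants 7 were named after their values were seen. Titles and descriptions of 2 control male libraries are swapped, within the same group. Counts give the precision of counting only, and PCR reads are not independent molecules.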

Additional observations from a re-analysis of the deposited data

Results flagged for a closer look

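In 11 of 46 sets of member values, 1 library lay far from the others of its group by Dixon's criterion. Its rate of about 1 set in 20 holds for independent sets of normally distributed values. Shares cannot fall below 0 and had SDs up to 1.79 times the mean, and every flag was at the high end. Some sets also overlap, such as Helicobacter and its variant 1, so the count cannot be set against that rate. PAE female 13 had 10.1% Helicobacter, where the next PAE female had 5.29%, and 7.55% of Helicobacter variant 1, where the next had 3.54%. Control female 3 had 1.13% Bilophila, where the next control female had 0.372%, and 1.61% of Desulfovibrionaceae without a genus name, where the next had 0.604%. PAE male 23 stood out in the same pair of lineages, with 0.433% Bilophila (next 0.216%) and 0.509% unnamed Desulfovibrionaceae (next 0.194%). Control female 9 held 0.106% of Mucispirillum variant 1, 0.0958% of variant 2 and 0.101% of variant 3, where the next control female held 0.0128%, 0.0144% and 0.0133%. Control female 34 held 1.01% of Desulfovibrio variant 1 (next 0.306%), and PAE female 27 held 0.0266% of Desulfovibrio variant 6 (next 0.0108%). The cause of these values was not tested.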

How the results depend on the processing

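Of the 5 member genera, limma on centred log-ratios called 2 in males and 1 in females. With no filter beyond 1 read, 2 of all 11 member genera were called in males, Citrifermentans (17 reads) higher and Smithella (27 reads) lower, where 119 of 432 genera were. Male against female in controls, DESeq2 called 1 genus (of all genera 11 of 112) and the stricter filter 1 (5 of 73). DESeq2 called 1 variant there (of all variants 32 of 553). Of member variants in males (1 called), DESeq2 called 2 (of all variants 82 of 553) and centred log-ratios 11 (95 of 553). No filter called 7 in males, of which 6 lower (539 of 6085), and controls 30 to 37 alone 9 (143, or 29% of all). The random block, the stricter filter, controls 1 to 10 alone and PAE 11 to 19 alone called 0 in males. In females (2 called), no filter called 4, all lower and neither of the 2 (169 of 6085), the library total as a covariate 1 (41 of 553) and controls 30 to 37 alone 9 (9.74% of all), and the random block, the stricter filter, compared groups only, controls 1 to 10 alone and PAE 11 to 19 alone called 0. Desulfovibrio variants 5 and 6 could not pass the stricter filter, neither was tested in females with the compared groups only, and variant 6 was not tested with PAE 11 to 19 alone. Signs turned for uncalled fold changes: Helicobacter in males with controls 1 to 10 alone (-0.0051), and in females with the stricter filter (-0.24) and PAE 11 to 19 alone (-0.063). Mucispirillum in males turned with centred log-ratios (2.42), the random block (2.44), and PAE 11 to 19 alone (0.55). Desulfovibrio in males turned with library totals (-0.38), DESeq2 (-0.12), the stricter filter (-0.11), controls 1 to 10 alone (-0.69), PAE 11 to 19 alone (-0.41) and PAE 20 to 29 alone (-0.14), and in females with the stricter filter (-0.050), controls 30 to 37 alone (-0.70) and PAE 20 to 29 alone (-0.50). Bilophila in females turned with the stricter filter (-0.58), and unclassified Desulfovibrionaceae in females with centred log-ratios (1.82), the random block (2.78) and controls 30 to 37 alone (7.74). The causes were not tested.

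The leading Desulfovibrio share in males lost its call with at least 1000 reads (-27.4) and with controls 1 to 10 alone (-1.79), and the Mucispirillum share, male against female in controls, turned with at least 20 reads (17.9). The Helicobacter share in females turned against controls 1 to 10 (-5.00), and the male shares of Helicobacter (57.6) and Mucispirillum (-99.9) passed against controls 30 to 37. Among correlations, ranks on percents turned Helicobacter with Mucispirillum (0.083), Mucispirillum with Desulfovibrio (0.049) and Mucispirillum with Bilophila (0.094). Centred log-ratios turned the last (0.0014) and brought Desulfovibrio past the threshold with Helicobacter (0.66) and Bilophila (0.48). These settings, the use of libraries 1 to 29 and the shares by control run were chosen after seeing the data. No paired analysis was possible because no source used here gives the dams, litters or cages. The replicate numbers are the library numbers, so they cannot show a pairing.

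Leaving out 1 library at a time gave 1 to 2 variants called in males and in females. The leading share ranged from -30.5 to -23.9 (Desulfovibrio, males), -20.1 to -8.53 (Desulfovibrio, females), 19.02 to 29.5 (Helicobacter, males) and -5.00 to 11.5 (Helicobacter, females). Male against female it ranged from -56.9 to 42.8 (Mucispirillum, controls) and -0.434 to 3.19 (Desulfovibrio, PAE). The log2 fold change of Mucispirillum in males ranged from -0.99 to 0.078, the highest without control male 1, and that of Desulfovibrio from -0.15 to 0.48 in males and -0.12 to 0.47 in females.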
